A study of Mus musculus with 6 samples.

Results

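Hyaluronan is a long sugar chain of the extracellular matrix, and 9 mouse genes that make it, cut it or bind it were followed here in a list of accessible chromatin from kidney cortex. They were the hyaluronan synthases Has1, Has2 and Has3, the hyaluronidases Hyal1, Hyal2 and Hyal3, the hyaluronan depolymerase genes Cemip and Cemip2, and the receptor Cd44. For each gene, the accessible intervals between 3 kb upstream of its start and its end were collected on the annotation of the mouse genome build GRCm39. This gave 85 intervals counted per gene, or 82 distinct ones, of 279569 in the whole list. The 9 genes were set beside all 21757 protein-coding genes.

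Hyaluronan is made at the plasma membrane, where a synthase joins UDP-glucuronic acid and UDP-N-acetylglucosamine and pushes the growing chain out of the cell. In the kidney it is abundant in the inner medulla and scarce in the healthy cortex, and it accumulates in the cortical interstitium after injury. Long chains are cut at the cell surface and in the extracellular space by HYAL2, CEMIP and CEMIP2, and the pieces are degraded in lysosomes by HYAL1 and by exoglycosidases. CD44 is the main cell surface receptor and carries hyaluronan into the cell.

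The assay was ATAC-seq, which finds stretches of DNA that an added transposase can reach in nuclei. By their labels the samples were 3 WT and 3 Acly cKO kidneys, all under the treatment "Control". By the study's methods, the Acly cKO mice were Acly fl/fl mice carrying Ksp-Cre, which recombines in tubular epithelium of the proximal and distal tubule and the collecting duct, so that other kidney cells keep ACLY, and the WT mice were littermates with Acly fl/fl and no Cre. The labels give no age. Batches 1 and 2 hold WT samples only, and batches 4 and 5 hold Acly cKO samples only. An effect of batch and one of genotype cannot be told apart. The deposited peak list is a single call over pooled libraries with no column for a library, so it holds no replicate error and allows no comparison of the genotypes. Every value below describes the pool.

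A value in the list is the fold enrichment of reads at a summit, the position of highest coverage, over a constant background of 14.3 reads. The fold enrichment of every summit stood within 0.01 reads of a whole number of reads, each worth 0.0655 of a fold, so the reads behind each value were recovered. The lowest value in the list was 1.70-fold, or 25 reads. Poisson intervals at 95% are given for single values. They cover counting error only, not differences between animals. In whole tissue, fewer cells with an open site and a less open site per cell cannot be told apart.

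All 9 genes had an interval within 1 kb of their start, where 74.3% of protein-coding genes had one. An interval of at least 5-fold there was found at 8 of the 9 genes, all but Has1, against a background of 64.3%. The median start value was 20.8-fold over the 9 genes and 17.5-fold over all protein-coding genes, with genes without an interval counted as 0. The 3 synthases held the 3 lowest start values, Cd44 and Cemip lay near the median of all genes, and the highest were those of Cemip2, Hyal2 and Hyal3.

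**Figure D1:**
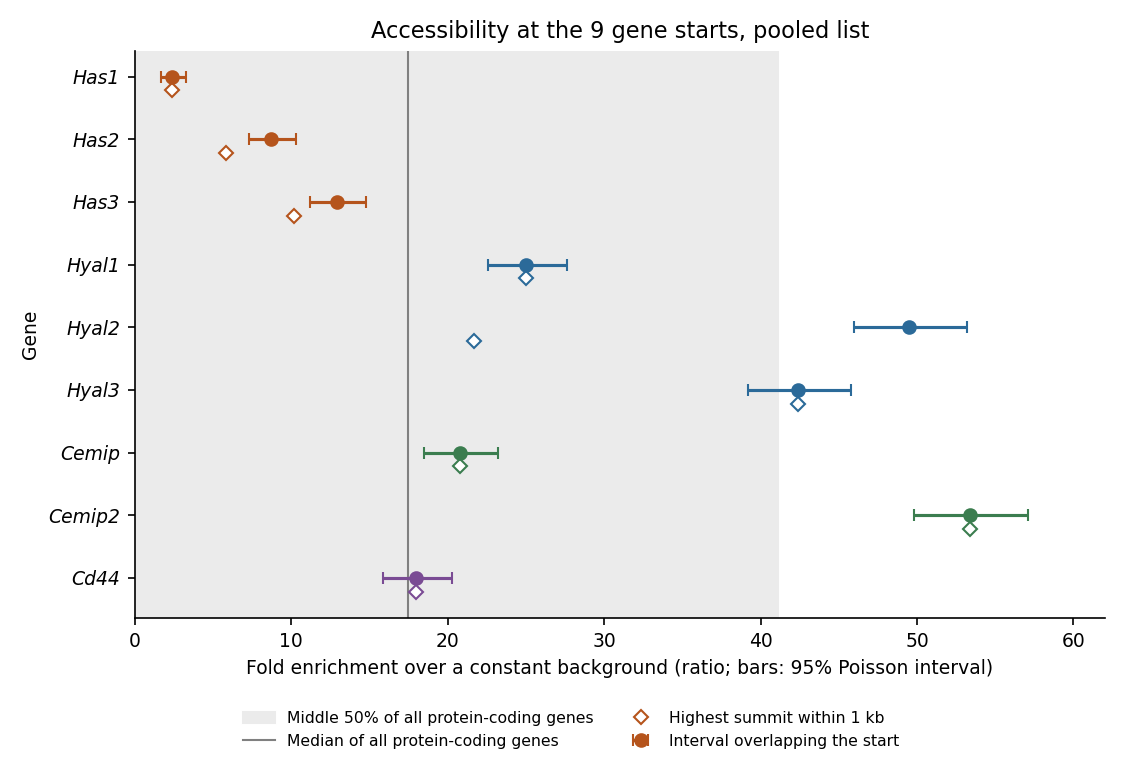
Fold enrichment at the start of each gene in the pooled list (horizontal axis, ratio over background), with filled circles for the interval overlapping 1 kb on either side of the gene start, bars for its 95% Poisson interval, open diamonds for the highest summit that itself lies within 1 kb, and colours for the role of the gene. The synthases lie at 2.36, 8.71 and 12.9, left of the median of all genes at 17.5, and Hyal2 is the gene whose 2 values differ most, 49.5 and 21.7.

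Ordered by the interval at the start, Cemip2 had 53.4-fold (814 reads, interval 49.8 to 57.1), Hyal2 49.5-fold (46.0 to 53.2), Hyal3 42.4-fold (39.2 to 45.8) and Hyal1 25.0-fold (22.6 to 27.6). Then came Cemip with 20.8-fold (18.5 to 23.2), Cd44 with 18.0-fold (15.9 to 20.3), Has3 with 12.9-fold (11.2 to 14.8), Has2 with 8.71-fold (7.30 to 10.3) and Has1 with 2.36-fold (35 reads, 1.66 to 3.25). Of the 8 neighbouring pairs in this order, the counting intervals overlapped for Cemip2 and Hyal2, for Hyal1 and Cemip, and for Cemip and Cd44. The value of Hyal2 needs care, because its interval is 13719 bp long and its highest summit lies 4697 bp upstream of the Hyal2 start. With only summits within 1 kb of the start, Hyal2 fell to 21.7-fold (19.4 to 24.1), Has3 to 10.2-fold and Has2 to 5.83-fold, while the other 6 values were unchanged.

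The sequence at the start is shown for the receptor gene Cd44, whose start lay near the median of all genes, and for the synthases Has1 and Has3, with the lowest and the highest start of the 3 synthases. Each run covers 250 bases before the start and 50 after it on the strand of the gene, read from GRCm39, and capitals mark matches on either strand to 10 short motifs. These were the GC box GGGCGG, the CCAAT box CCAAT, the TATA box TATAAA, the E-box CACGTG, the CRE core TGACG, AP-1 TGANTCA, STAT TTCNNNGAA, the nuclear receptor site AGGTCA, the HNF4 core CAAAGTCCA and the HNF1 site GTTAAT. N stands for any base, and the nuclear receptor and HNF1 entries are single arms of a paired site.
Cd44 gene start (chr2:102731961-102732260, minus strand): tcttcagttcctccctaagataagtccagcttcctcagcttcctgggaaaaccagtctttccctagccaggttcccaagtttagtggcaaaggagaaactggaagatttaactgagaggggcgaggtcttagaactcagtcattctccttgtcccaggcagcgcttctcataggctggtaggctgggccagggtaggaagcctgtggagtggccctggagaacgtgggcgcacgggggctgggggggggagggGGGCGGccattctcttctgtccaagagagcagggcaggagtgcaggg
Has1 gene start (chr17:18075418-18075717, minus strand): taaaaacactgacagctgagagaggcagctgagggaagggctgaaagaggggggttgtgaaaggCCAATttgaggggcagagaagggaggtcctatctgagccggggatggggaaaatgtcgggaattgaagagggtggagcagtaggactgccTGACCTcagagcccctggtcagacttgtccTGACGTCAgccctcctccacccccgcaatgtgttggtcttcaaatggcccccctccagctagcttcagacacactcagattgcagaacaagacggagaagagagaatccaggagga
Has3 canonical start (chr8:107597210-107597509, plus strand): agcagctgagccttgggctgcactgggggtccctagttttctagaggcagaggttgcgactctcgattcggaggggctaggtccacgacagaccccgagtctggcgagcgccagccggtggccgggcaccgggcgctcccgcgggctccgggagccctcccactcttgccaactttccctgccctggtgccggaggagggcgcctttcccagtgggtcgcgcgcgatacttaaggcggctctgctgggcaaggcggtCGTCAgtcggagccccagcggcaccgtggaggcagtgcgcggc
The Cd44 window holds 1 GC box and none of the other motifs. In Has1 the CRE core is read on both strands, and the 2 overlapping matches together span 8 bases. The Has3 window is that of the canonical transcript, which begins 586 bp inside the annotated gene start. A GC box was found at the gene starts of 6 of the 9 genes and in 35.8% of all promoters, and a CCAAT box at 5 of 9 and in 39.8%. A TATA box was found at 1 of the 9 and in 13.7%. A match is a description of the letters only.

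CpG-rich starts are commonly open in many cell types, and the CpG content of the 9 windows differed widely. The ratio of observed to expected CpG was 0.79 at Cemip, 0.61 at Cemip2, 0.56 at Has3, 0.53 at Has2, 0.30 at Hyal1, 0.25 at Cd44, 0.22 at Has1, 0.12 at Hyal2 and 0.00 at Hyal3, with a median of 0.433 over all genes. For Hyal2 and Has3 the canonical start lies elsewhere and had 0.62 and 0.77. Among 1782 genes with CpG ratios in the same bin as Has2 and Has3, the middle of the start values ran from 12.0-fold to 45.9-fold, so Has2 (8.71-fold) lay below it and Has3 (12.9-fold) just above its lower end. Cemip (20.8-fold) lay below the lower quartile of its 2123 genes (21.8-fold), and Cemip2 (53.4-fold) lay above the upper quartile of its 1888 genes (51.5-fold). Has1, with few CpG, lay near the median of its bin (3.34-fold). Hyal1 (25.0-fold) lay above the upper quartile of the same bin (18.0-fold), where Cd44 stood. Hyal2 and Hyal3 lay above 96.3% and 96.5% of the genes with as few CpG at the annotated start, and at both the open summit sits at another start of the same gene or of a neighbour, as described below. By the ratio of its canonical start, Has3 would lie below the lower quartile of its bin (21.8-fold). Hyal2 would then lie inside the middle of its bin, from 17.5-fold to 51.5-fold.

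**Figure D2:**
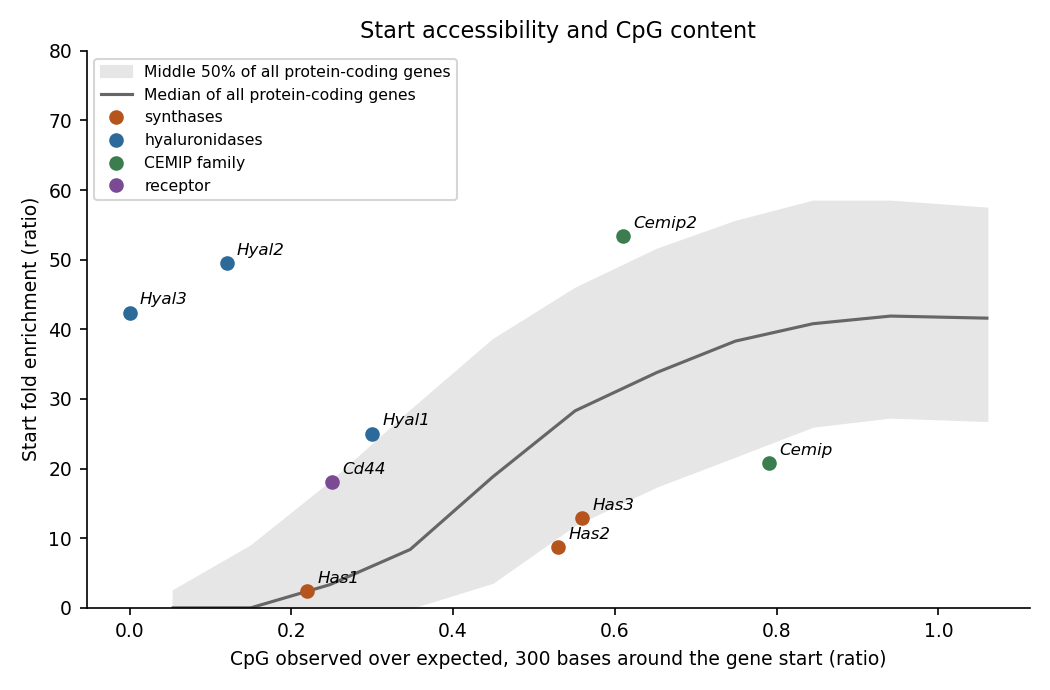
Start fold enrichment (vertical axis, ratio) against the observed over expected CpG ratio of 300 bases at the gene start (horizontal axis), with the median and middle 50% of all protein-coding genes in bins of CpG ratio and 1 point for each hyaluronan gene. Has2 and Cemip lie below the grey band, and Cemip2, Hyal1, Hyal2 and Hyal3 lie above it.

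Over their whole regions, the 82 distinct intervals had a median of 2.88-fold against 2.55-fold over all intervals, and 24 of them (29.3%) reached 5-fold, against 24.5% of the whole list. A summit of at least 10-fold more than 1 kb from the start was found in 5 of the 9 regions, those of Has3, Hyal1, Hyal2, Cemip and Cemip2, where 39.6% of all protein-coding genes had one. This distance is from the annotated gene start, so summits at other starts are included. Examples are 24.7-fold at 3 bp from the canonical Hyal2 start, and 42.4-fold inside Hyal1 at 7 bp from a Hyal3 transcript start. Long genes collect more intervals, so each count was set beside genes whose region was within 1.25 times as long. Cemip2 had 31 intervals where the median of these genes was 14.0 and 85.1% had fewer, and Hyal1 had 4 where the median was 1. Cemip, the longest of the 9 with 153660 bp, had 13 where the median was 21.0. Has1 had 7 against 4, Has3 5 against 4, Has2 4 against 7, Cd44 17 against 15.0, Hyal3 3 against 2 and Hyal2 1 against 1. These counts depend on how an interval is assigned. From the gene start to the gene end alone, Hyal1 had 2 and Has1 had 4. With only intervals whose highest summit lies inside the region, Hyal2 had 0 and Hyal3 had 1, and with 10 kb on either side Hyal2 and Hyal3 had 6 each and Has3 had 11.

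**Figure D3:**
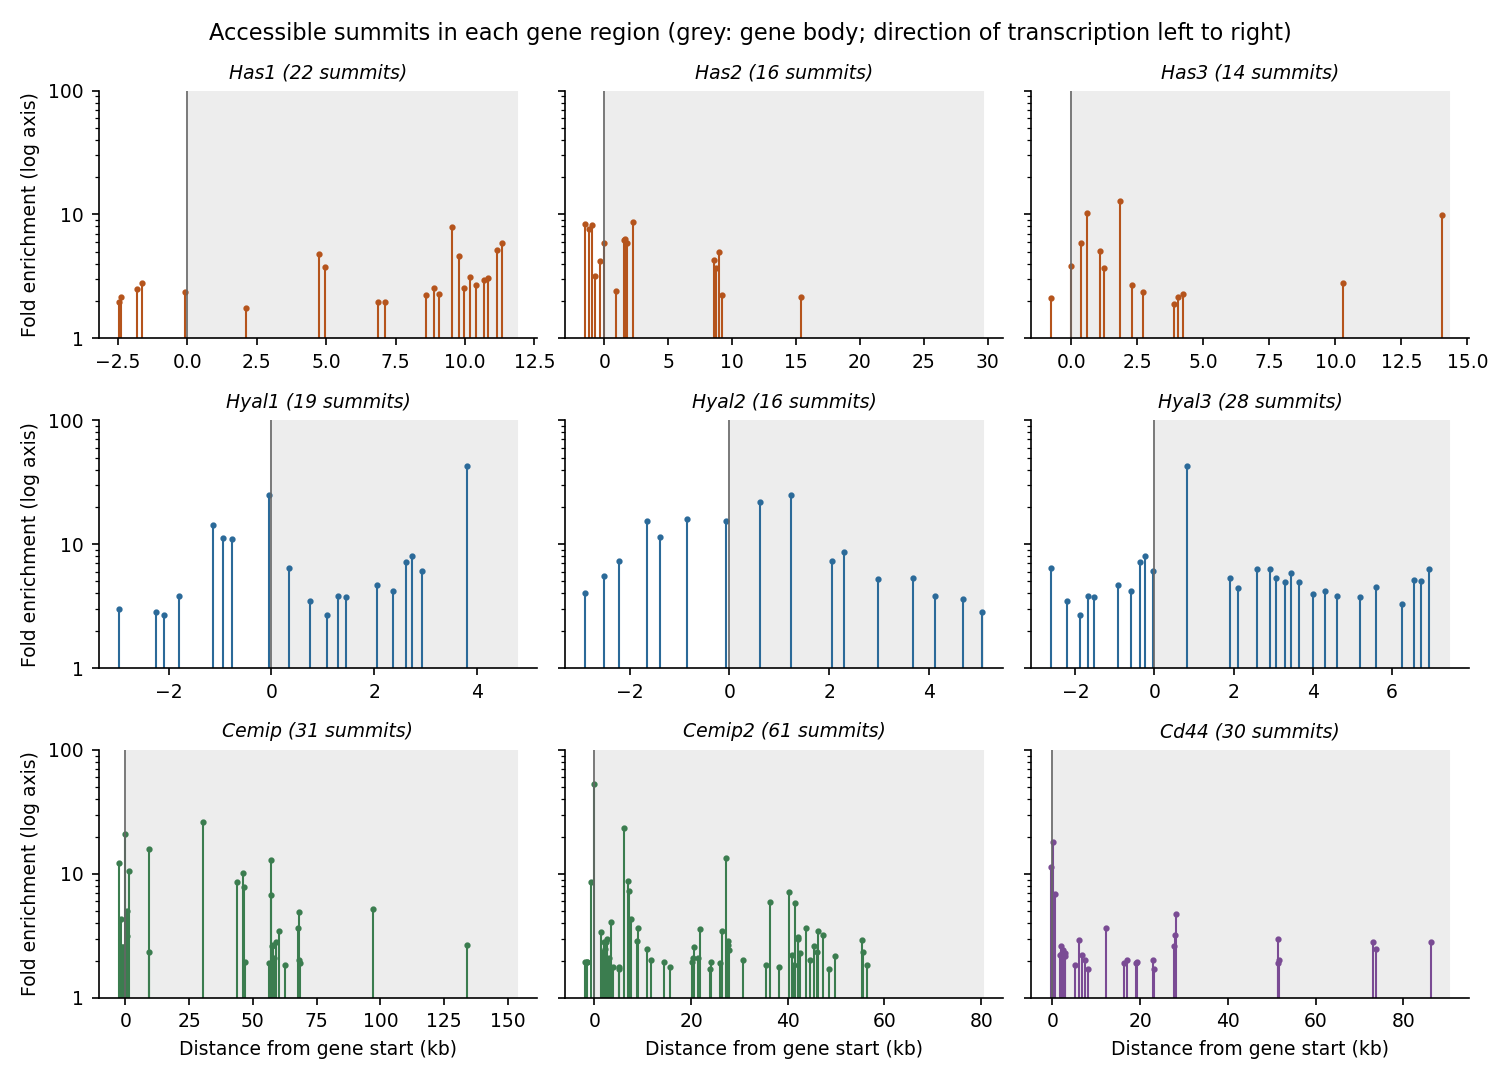
Every summit in each gene region, with its distance from the gene start in the direction of transcription (horizontal axis, kb) and its fold enrichment (vertical axis, log scale). Cemip2 is led by its start at 53.4, Cemip by a summit in intron 1 at 26.4, and no summit in the Has1 or Has2 region reaches 10.

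Has1 is the synthase with the lowest catalytic activity and, in most tissues, the least transcript. It lies on chromosome 17 at 18063585 to 18075467 on the minus strand. Its start summit, 91 bp upstream and inside the overlapping gene Gm65933, reached 2.36-fold. Inside the region no summit passed 7.92-fold, found in intron 4 at 9522 bp from the start, and exon 2 held one of 4.78-fold at 4735 bp. The interval counted for Has1 with the highest value, 94.1-fold, is 13733 bp long with 39 summits, and its highest summit lies 16911 bp from the Has1 start, beyond the 3′ end, in the neighbouring gene Spaca6. Has1 thus had the least accessible start of the 9, and its strongest counted interval peaked in another gene.

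Has2 is the synthase needed for heart development in the embryo and the one most often induced in injured stroma. Its gene lies on chromosome 15 at 56528342 to 56557999 on the minus strand. Its start summit, 53 bp upstream, reached 5.83-fold (88 reads, 4.69 to 7.16). Similar or higher values stood on both sides of it, at 1546 bp upstream (8.38-fold, 7.0 to 9.96), 1008 bp upstream (8.18-fold) and 2217 bp into intron 1 (8.71-fold, 7.30 to 10.3). The last of these lies 748 bp from a start of the antisense gene Has2os, which overlaps Has2. Further into intron 1, at 8951 bp, an interval reached 4.98-fold. The Has2 region was therefore a set of low summits rather than a single open start. The counting interval of the start summit overlapped those of the upstream summits but not that of the 8.71-fold summit in intron 1. A match to the AP-1 letters TGANTCA was in the 201-base windows of 3 of its 4 intervals, against 12.4% of all intervals. The upstream window is shown over 101 bases around the summit, and its match has A at the free middle base.
Has2 1546 bp upstream (chr15:56559495-56559595, minus strand): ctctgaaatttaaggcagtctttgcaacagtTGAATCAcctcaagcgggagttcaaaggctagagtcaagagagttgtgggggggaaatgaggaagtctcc

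Has3 makes shorter chains than the other synthases and is found in epithelia. It lies on chromosome 8 at 107596874 to 107611198 on the plus strand. The summit at 587 bp from the annotated start, 1 bp from the canonical start shown above, reached 10.2-fold (155 reads, 8.68 to 11.9). A summit in intron 1, 1835 bp from the annotated start, was the highest of the region at 12.9-fold (196 reads, 11.2 to 14.8), and its counting interval overlapped that of the start. At the 3′ end, 14059 bp from the start, an interval of 9.82-fold also covered Derpc and Chtf8. Has3 was the most accessible synthase, with values below the median of all gene starts. The intron 1 summit is shown because it led the gene, and none of the 10 motifs lies in the 101 bases printed, while the 201-base window holds 1 STAT match.
Has3 intron 1 at 1835 bp (chr8:107598659-107598759, plus strand): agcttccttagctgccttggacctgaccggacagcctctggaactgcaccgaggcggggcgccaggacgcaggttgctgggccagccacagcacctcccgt

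HYAL1 is a lysosomal hyaluronidase, HYAL2 is anchored at the cell surface, and HYAL3 has little known activity of its own. Their genes stand together on the plus strand of chromosome 9, with Hyal2 at 107445086 to 107450171, Hyal1 at 107454126 to 107458909 and Hyal3 at 107457100 to 107464558, so that Hyal1 and Hyal3 overlap. Accessible intervals covered 91.4% of the Hyal1 region, 100% of that of Hyal2 and 96.3% of that of Hyal3, while the median over all genes was 16.7%. The intervals here are wide and shared, and 3 of them were counted for 2 of the genes. Values were therefore read at single summits.

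**Figure D4:**
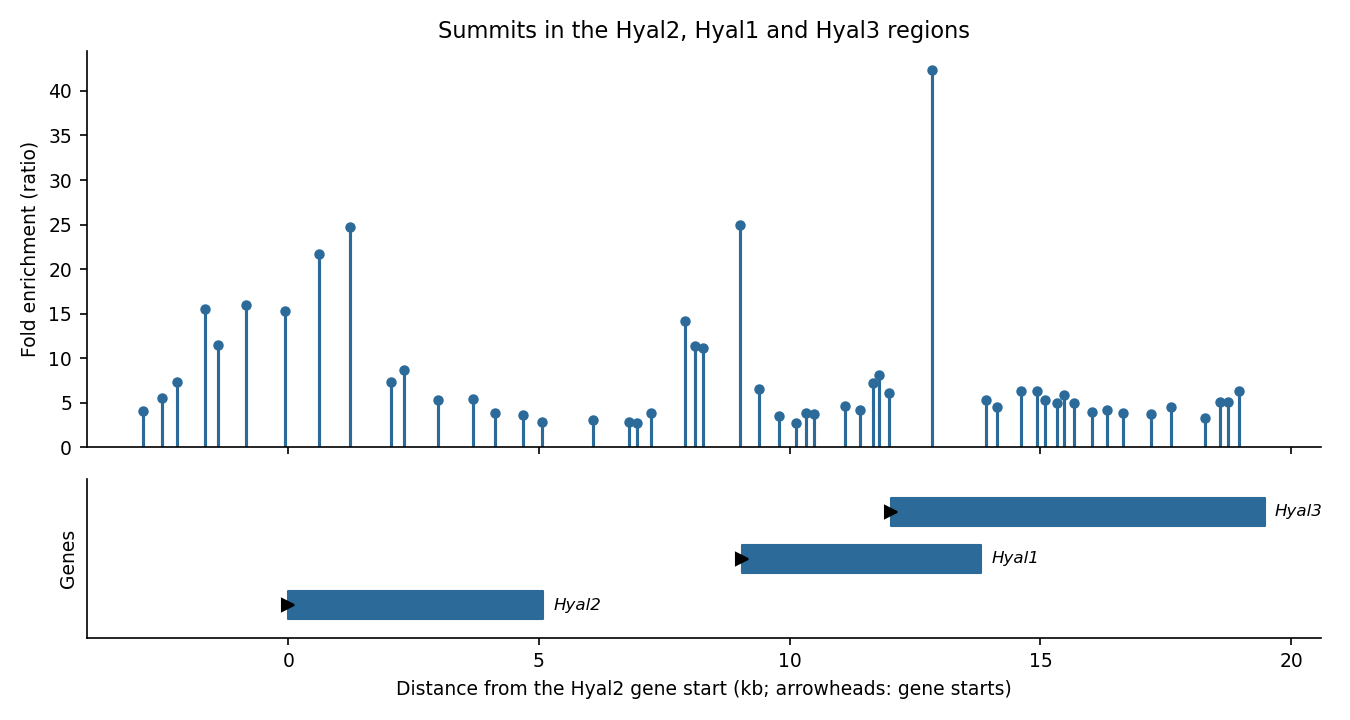
Summits in the regions of Hyal2, Hyal1 and Hyal3 (upper panel, fold enrichment against distance from the Hyal2 gene start in kb) and the extent of the 3 genes, with arrowheads at their starts (lower panel). The tallest summit, at 42.4, stands inside both Hyal1 and Hyal3, and summits of 25.0 and 24.7 stand at the Hyal1 start and near the canonical Hyal2 start.

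Hyal2 had a run of open summits rather than a single one. They reached 15.3-fold at 69 bp upstream of the annotated start, 21.7-fold at 612 bp and 24.7-fold (376 reads, 22.3 to 27.3) at 1223 bp, which is 3 bp from the canonical start. A further summit of 16.0-fold lay 845 bp upstream, 4 bp from a start of Gm9917. The interval that holds all of these also covers the start of Tusc2 and part of Rassf1. Its highest summit, 49.5-fold, lies in Gm9917, just upstream of the Tusc2 start and 4697 bp upstream of the Hyal2 start. The protein-coding start nearest to this summit is thus that of Tusc2, not that of Hyal2.

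Hyal1 had 25.0-fold (381 reads, 22.6 to 27.6) at 37 bp upstream of its start. Upstream of it stood summits of 14.2-fold at 1126 bp, 56 bp from a start of Gm68829, and of 11.3-fold and 11.1-fold at 935 and 760 bp. Inside exon 4 of Hyal1 lies the tallest summit of the cluster, 42.4-fold (647 reads, 39.2 to 45.8). The same base is 828 bp from the annotated start of Hyal3, 7 bp from another Hyal3 transcript start, and in an interval that also covers the start of Naa80. Around the annotated Hyal3 start itself the nearest summits were 8.05-fold at 230 bp upstream and 6.09-fold at 37 bp upstream. The open site counted for Hyal3 was thus at an alternative start, on a base that Hyal1, Naa80 and Hyal3 all overlap, and its reads cannot be split between them. The third interval counted for Hyal3, 64.8-fold, had its summit in Ifrd2. The window of the 42.4-fold summit is shown with 2 GC boxes and a CRE core.
Hyal3 summit at 828 bp (chr9:107457878-107457978, plus strand): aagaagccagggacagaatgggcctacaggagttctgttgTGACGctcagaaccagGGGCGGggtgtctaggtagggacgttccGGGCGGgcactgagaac

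CEMIP binds hyaluronan and is needed for its breakdown outside the lysosome, and CEMIP2 is a related protein of the cell surface. Cemip lies on chromosome 7 at 83582065 to 83735724 on the minus strand. Its start summit, 191 bp upstream, reached 20.8-fold (316 reads, 18.5 to 23.2). The highest value of the gene was not at the start but at 30395 bp in intron 1, 26.4-fold (403 reads, 23.9 to 29.2), in an interval of 1202 bp with this summit alone. The 2 counting intervals do not overlap. Other summits of intron 1 reached 15.9-fold at 9077 bp, 13.0-fold at 57237 bp, 10.5-fold at 1331 bp, 10.1-fold at 46210 bp and 8.58-fold at 43635 bp, and a summit 2646 bp upstream reached 12.2-fold. Beyond intron 1, the rest of the gene held 2 intervals, of 5.17-fold in intron 6 and 2.68-fold in intron 21. Cemip was the gene of the 9 with the most intervals of at least 10-fold, 6 of its 13. That value was reached by 19.5% of the 82 distinct intervals and by 12.3% of the whole list. Of the 13 Cemip intervals, 9 had their summit in intron 1. The summit at 57237 bp lies 228 bp from a start of Gm73332 and holds an AP-1 motif, whereas the highest one holds a CCAAT box.
Cemip intron 1 at 30395 bp (chr7:83705279-83705379, minus strand): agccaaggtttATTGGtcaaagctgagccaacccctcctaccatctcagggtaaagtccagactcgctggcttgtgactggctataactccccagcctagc
Cemip intron 1 at 57237 bp (chr7:83678437-83678537, minus strand): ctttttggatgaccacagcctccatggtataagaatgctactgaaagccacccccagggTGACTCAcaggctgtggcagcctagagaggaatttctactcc

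Cemip2 lies on chromosome 19 at 21755657 to 21836114 on the plus strand. Its start, at 5 bp, was the most accessible of the 9 at 53.4-fold (814 reads, 49.8 to 57.1), above 85.3% of all protein-coding genes. In contrast to Cemip, the start was the highest summit of the gene by a margin beyond the counting intervals. The next was 23.4-fold (357 reads, 21.1 to 26.0) at 6178 bp in intron 1, 69 bp upstream of another Cemip2 transcript start. Intron 5 held 13.4-fold at 27194 bp, and introns 10 and 12 held summits of 5.96-fold, 7.14-fold and 5.83-fold. Of its 31 intervals, 25 stayed below 5-fold, and 29 had their summit in an intron. The alternative start and the intron 5 site are shown, with a single arm of an HNF1 site (GTTAAT) in the first and an AP-1 motif in the second.
Cemip2 intron 1 at 6178 bp (chr19:21761785-21761885, plus strand): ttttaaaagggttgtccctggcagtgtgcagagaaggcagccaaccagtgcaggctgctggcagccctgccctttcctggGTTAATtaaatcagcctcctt
Cemip2 intron 5 at 27194 bp (chr19:21782801-21782901, plus strand): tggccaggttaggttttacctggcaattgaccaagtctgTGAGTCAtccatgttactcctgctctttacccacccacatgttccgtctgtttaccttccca

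Cd44, on chromosome 2 at 102641486 to 102732010 on the minus strand, had 18.0-fold at 94 bp in exon 1 (274 reads, 15.9 to 20.3) and 11.4-fold at 382 bp upstream (173 reads, 9.77 to 13.2), both in the same interval. The other 16 intervals stayed at or below 4.71-fold, 12 intervals had their summit in intron 1, and accessible intervals covered 9.35% of the region. The distal part of this long gene held little signal, with 3.01-fold in intron 5, 2.82-fold in exon 16, 2.49-fold in intron 16 and 2.82-fold in intron 18. The strongest site away from the start, 4.71-fold in intron 1 at 28209 bp, holds an AP-1 motif. So did 7 of the 17 Cd44 intervals, this one included, against 12.4% of all intervals.
Cd44 intron 1 at 28209 bp (chr2:102703751-102703851, minus strand): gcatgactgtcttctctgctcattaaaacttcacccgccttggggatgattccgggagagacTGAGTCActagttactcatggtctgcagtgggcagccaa

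Over all distinct intervals of the 9 genes, an AP-1 motif lay within 100 bases of the highest summit in 21 of 82 (25.6%), against 12.4% of all intervals. All 21 were more than 1 kb from a protein-coding gene start, which makes 21 of 73 (28.8%) against 12.8% of all such intervals. By gene, they were 7 intervals of Cd44, 5 of Cemip2, 4 of Cemip, 3 of Has2, 1 of Has1 and 1 of Hyal1. AP-1 is the factor formed by FOS and JUN proteins. The letters TGANTCA take any base in the middle, and these shares were not split by that base. The CRE core was in 14.6% against 8.92%, and away from gene starts in 12.3% against 8.22%. The GC box was in 9.76% against 8.17%, and away from starts in 2.74% against 5.76%. Shares nearer to that of the list were 19.5% against 17.8% for the nuclear receptor site, 23.2% against 22.9% for the CCAAT box and 7.32% against 7.33% for the HNF1 site. The HNF4 core was in none of the 82, and it occurs in 0.887% of all windows. Intervals of 1 gene share their locus and were not taken as independent, so these shares are descriptions.

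The genes for sugar precursors had accessible starts throughout. All 8 genes of this list had an interval of at least 5-fold at their start, against a background of 64.3%, and their median was 58.0-fold. Uap1, which makes UDP-N-acetylglucosamine, reached 74.6-fold, Ugdh, which makes UDP-glucuronic acid, 67.8-fold, and Gfpt1, the entry enzyme of the hexosamine pathway, 44.7-fold. Its paralog Gfpt2 was the lowest at 14.3-fold. The starts of 7 of these 8 genes, from 30.1-fold upward, stood above those of the synthases that use their products, and the counting interval of Gfpt2 (12.5 to 16.4) overlapped that of Has3 (11.2 to 14.8). CpG content was not matched in this comparison.

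The lysosomal exoglycosidase genes Gusb and Hexa, whose products remove single sugars from the ends of sugar chains, had 23.8-fold and 15.6-fold. The other hyaluronidase-like genes had weak starts or none. Hyal4 had 2.29-fold (1.61 to 3.18), near the value of Has1, and Hyal5, Hyal6 and Spam1, which are known from sperm, had no interval within 1 kb of their start. Of 7 other receptor genes, 5 had an interval at the start and all 5 reached 5-fold, against backgrounds of 74.3% and 64.3%. These were Hmmr with 63.7-fold, Tlr2 with 34.4-fold, Tlr4 with 19.1-fold, Layn with 16.1-fold and Stab1 with 6.74-fold, while the endothelial receptors Lyve1 and Stab2 had none within 1 kb of it.

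Of 16 genes for hyaluronan-binding matrix proteins, 14 had an interval within 1 kb of their start and 9 (56.2%) reached 5-fold there, with a median of 6.15-fold. Over all protein-coding genes the shares were 74.3% and 64.3%, and the median was 17.5-fold. The highest of the 16 were Ambp with 58.0-fold and Vcan with 33.4-fold, but their summits within 1 kb of the start reached only 3.67-fold and 8.18-fold. Tnfaip6, which moves heavy chains onto hyaluronan, had 8.71-fold, and Itih5, a heavy chain gene, 14.6-fold. The 8 CD44 partner genes all reached 5-fold, against the same 64.3%, with a median of 31.4-fold. Among them were the protease Adam10 with 60.9-fold, the epithelial splicing factors Esrp2 with 50.8-fold and Esrp1 with 36.5-fold, and ezrin, Ezr, with 30.5-fold. Over the 45 pathway genes, 32 (71.1%) reached 5-fold, against the background of 64.3%.

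**Figure D5:**
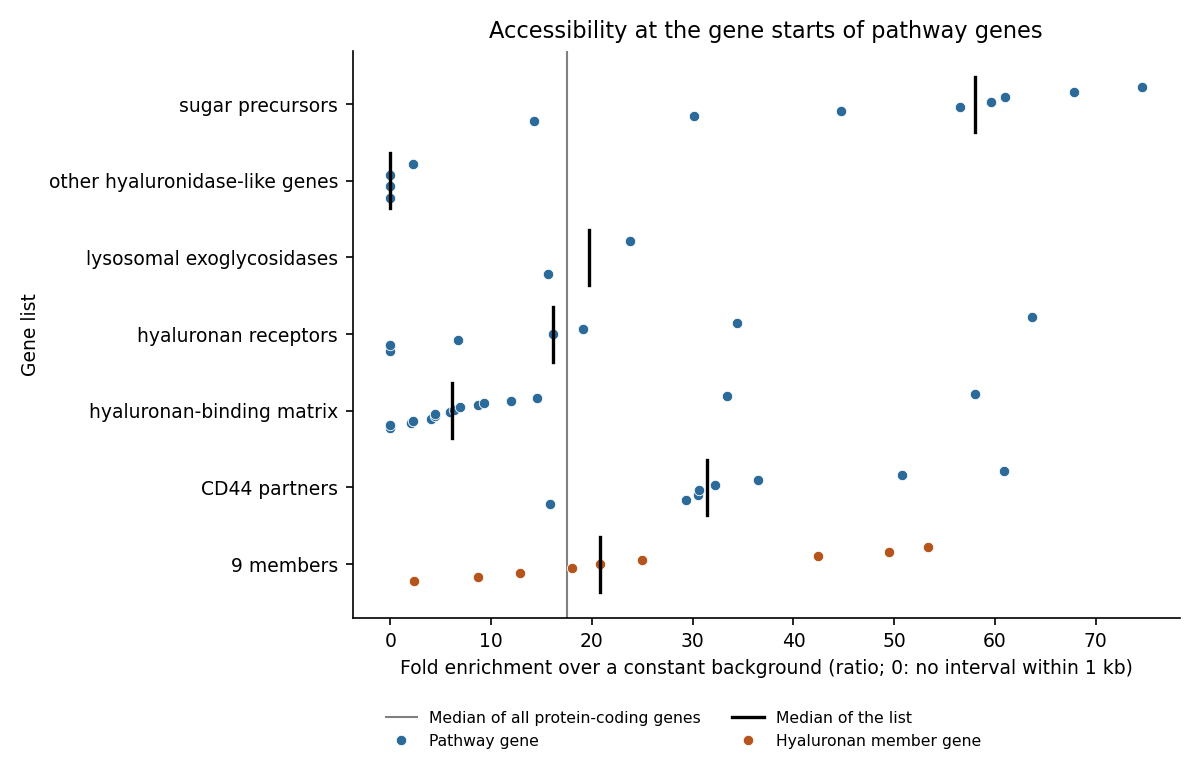
Fold enrichment at the gene start (horizontal axis, ratio over background, 0 for no interval within 1 kb) for each gene of the pathway lists, with a black line at the median of each list. The sugar precursor genes have the highest median, 58.0, and the other hyaluronidase-like genes lie between 0 and 2.29.

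Markers of the tissue were checked in the same way. A start interval of at least 5-fold was found at 5 of 5 proximal tubule genes, from 5.30-fold at Slc22a6 to 33.1-fold at Lrp2, and at 4 of 4 genes of the thick limb and distal tubule. It was found at 1 of 4 collecting duct genes, 1 of 3 podocyte genes, 1 of 4 endothelial genes, 1 of 4 immune genes, 2 of 4 stromal genes, 0 of 3 mesothelial genes and 1 of 6 genes of other organs. Over all protein-coding genes the share was 64.3%. The median was 15.1-fold over the proximal tubule genes and 11.9-fold over those of the thick limb and distal tubule. Both lay below the 17.5-fold of all protein-coding genes. These are values of intervals that overlap the start. With only summits within 1 kb, Slc34a1 fell from 16.2-fold to 5.63-fold and Kcnj1 from 15.2-fold to 8.71-fold. Slc12a3 fell from 8.38-fold to 4.39-fold, which is under 5-fold, and the other marker values were unchanged. Interval values near the 8.71-fold of Has2 were found at single markers of several lists. They were Slc12a1 with 8.51-fold, Slc12a3 with 8.38-fold, Kdr with 8.64-fold, Pdgfra with 7.92-fold and the other-organ marker Gfap with 8.05-fold. The remaining endothelial markers lay between 2.49-fold and 4.12-fold, and the remaining stromal ones between 2.36-fold and 5.63-fold. The part of tubular and other cells in the hyaluronan values was not tested.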

How the data were processed

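ATAC-seq had been run on nuclei of kidney cortex, and the labels give 3 WT and 3 Acly cKO libraries. By their methods, the authors used fastp for trimming and Bowtie2 (2.3.4.3) for alignment to mm39. After removal of duplicates and of reads without a unique position, they called peaks with MACS3 (3.0.0) at a q of 0.05 with an extension of 200 bp. Blacklisted regions and chromosomes outside the standard set were filtered out with bedtools (2.29.1). Versions follow the submitters' processing notes. The deposited peak list gives a fold enrichment per summit, a linear ratio computed by the authors, with the -log10 p and -log10 q of the authors' caller, and a deposited score that is the caller's rounded form of the q value. Of the paper's 5 WT libraries, those deposited earlier were not analysed here, and which libraries entered the pool is not stated in the files. There were 0 columns of single samples left unused.

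Rows were grouped into distinct intervals, each with its highest summit by -log10 q. Whole reads were recovered from the fold enrichment as multiples of 1 read, and the Poisson probability computed from them matched the deposited -log10 p to within 0.0005 for 724455 summits below a value of 250. Depth of single libraries is not known. Intervals were placed on GENCODE M39. Start values are those of the strongest interval within 1 kb of the gene start. Genes named are the 9 members, the pathway and marker lists, and genes whose start or body lies in a counted interval. Next protein-coding neighbours were added by position after the values were seen. Of the lists, 1 gene is not reported here. The members and lists were chosen with earlier results of these data known. No test was made, since the pool has no replicates. Promoter sequences were read from the GRCm39 genome, because the RefSeq promoter table is of another build. It was matched by sequence for 6 of the 9 genes. The scripts were tested on simulated data. Python 3.11.15 with NumPy 2.4.6, SciPy 1.17.1, pandas 2.3.3 and matplotlib 3.10.9 was used.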

Additional observations from a re-analysis of the deposited data

How the results depend on the processing

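The 85 intervals counted per gene became 55 with a q under 1e-05, 27 with at least 5-fold and 237 when summits in the regions were counted in place of intervals. A q under 0.01, the place of the highest summit, the share of an interval inside the region, the gene body alone and 10 kb on either side kept the number within 1.5 times, between 74 and 112. Counts at single genes moved more often, with 27 of 72 by over 1.5 times. The median start value of 20.8-fold was the same under all 6 other definitions of the start or the summit. Of 54 start values of single genes under these definitions, 4 left the counting interval of the main value. They were Has2 (5.83-fold), Has3 (10.2-fold) and Hyal2 (21.7-fold) with the summit itself within 1 kb, and Hyal1 (49.5-fold) within 3 kb, where the interval that spans Hyal2 was reached. The members with a start interval numbered 8 or 9 of 9, the pathway genes with one 32 to 38 of 45, and the pairs of a gene and a motif 17 to 24 of 90. No paired analysis was possible because the pooled list has no column for a single library. No replicate could be left out either. Depth limits the weakest values most. At Has1, 35 reads gave an interval of 1.66-fold to 3.25-fold, and sites below 1.70-fold are not in the list.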

Other observations

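The stretches between the hyaluronan genes and the next protein-coding genes also held intervals. Has2 stands alone, 757295 bp from Sntb1 on its 3′ side and 549163 bp from Slc22a22 on its 5′ side. These gaps held 29 and 24 intervals, with the highest summits at 15.8-fold, 647544 bp from the Has2 start, and at 19.5-fold, 70780 bp upstream. Both values were higher than any summit in the Has2 region itself, where the highest was 8.71-fold, and 6 summits of the gaps reached 10-fold. The 15.8-fold summit lies nearer to Sntb1 than to Has2, and which gene these sites act on was not tested.

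The other gaps were shorter. The stretches on both sides of Hyal2 and upstream of Hyal1, Hyal3 and Cemip were led by summits already described. Among them were 25.0-fold at the Hyal1 start and 20.8-fold at the Cemip start. Downstream of Hyal1, the stretch to Ifrd2 was led by a summit of 6.35-fold inside Hyal3. The 247 bp from Hyal3 to Ifrd2 held no summit. Cemip2 is 280295 bp from Trpm3 on its 3′ side, where 8 intervals reached at most 4.39-fold, and 81177 bp from Abhd17b on its 5′ side, where the highest was 8.64-fold at 664 bp. Upstream of Cd44, the 117758 bp to Pdhx held 18 intervals, led by the summit of 11.4-fold already described at 382 bp. Upstream of Has1, 6 intervals in the 21265 bp to Fpr1 reached at most 2.82-fold.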
